A study of Mus musculus with 4 samples.

Results

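The albumin gene cluster, *Gpc3* and the *Afp* repressors *Zhx2* and *Zbtb20* were followed as 7 genes. These were *Alb*, *Afp*, *Afm*, *Gc*, *Gpc3*, *Zhx2* and *Zbtb20*, chosen by name from the 20642 gene symbols measured. *Alb*, *Afp* and *Afm* are neighbours on mouse chromosome 5 and *Gc* lies on the same chromosome, while the other genes are on chromosomes X, 15 and 16. All 7 have a row in the deposited table, and 6 of them were transcriptionally active. A symbol counted as active with any promoter-proximal reads and with over 4 normalized reads per kb in the gene body on average, which held for 12705 symbols. *Gpc3*, at 2.91 per kb, was below this density.

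Transcription was measured by precision nuclear run-on sequencing (PRO-seq), which maps RNA polymerases engaged in elongation, in livers of C57BL/6 mice on postnatal day 14. The WT libraries (WT1, WT2) came from *Alb-Cre*+ *Hdac3*+/+ mice and the KO libraries (KO1, KO2) from *Alb-Cre*+ *Hdac3* fl/- or fl/fl mice. Both groups thus carried Cre driven by the albumin promoter, which is active in hepatocytes, and *Hdac3* encodes a histone deacetylase of transcriptional corepressor complexes. The nuclei behind a library were a pool from whole livers of several mice, so differences between single animals cannot be seen, and there were 2 libraries per genotype. Between 16628518 and 26190040 reads fell on genes per library, and the promoter-proximal share was 9.38 to 10.3% in WT and at least 13.6% in KO. The gene body of *Hdac3* itself was at 665 and 648 normalized reads in WT1 and WT2 and at 609 and 582 in KO1 and KO2. Its log2 fold change of -0.14 ± 0.13 (SE) was not called by limma (adjusted p = 0.413), so nascent reads over the whole gene do not check the genotype labels.

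The albumin family encodes plasma carrier proteins made by hepatocytes. Albumin (*Alb*) is the most abundant plasma protein, alpha-fetoprotein (*Afp*) is its fetal counterpart and is shut down after birth, afamin (*Afm*) binds vitamin E, and *Gc* encodes the vitamin D binding protein. The zinc finger factors *Zhx2* and *Zbtb20* are known repressors of *Afp* in the postnatal liver, and *Gpc3*, a cell surface glypican, is also silenced after birth and is a marker of hepatocellular carcinoma together with *Afp*.

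Promoter sequences of the genes are shown to compare the base composition and the TATA box of these promoters, which the choice of genes did not use. The RefSeq table (GRCm38.p6, the primary chromosomes of mm10) held a promoter entry for 6 of the 7 genes and none for *Zhx2*. The 250 bases before the start are printed on the strand of each gene for the 4 genes of the albumin family and for *Gpc3*. They are chr5:90460620-90460869 (plus strand) for *Alb*, chr5:90490464-90490713 (plus) for *Afp*, chr5:90518699-90518948 (plus) for *Afm*, chr5:89457899-89458148 (minus) for *Gc* and chrX:52613975-52614224 (minus) for *Gpc3*. Capitals mark TATAAA on either strand, the core letters of the TATA box at which transcription machinery assembles.
Alb: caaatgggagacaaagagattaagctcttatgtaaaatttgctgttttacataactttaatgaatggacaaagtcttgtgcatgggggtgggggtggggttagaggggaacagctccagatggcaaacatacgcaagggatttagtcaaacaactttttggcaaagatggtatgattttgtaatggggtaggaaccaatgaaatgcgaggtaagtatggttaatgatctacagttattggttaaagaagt
Afp: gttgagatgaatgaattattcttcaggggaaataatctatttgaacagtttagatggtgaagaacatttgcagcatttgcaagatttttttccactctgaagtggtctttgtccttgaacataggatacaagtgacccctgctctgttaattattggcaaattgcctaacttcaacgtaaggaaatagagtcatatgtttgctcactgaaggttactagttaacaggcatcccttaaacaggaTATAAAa
Afm: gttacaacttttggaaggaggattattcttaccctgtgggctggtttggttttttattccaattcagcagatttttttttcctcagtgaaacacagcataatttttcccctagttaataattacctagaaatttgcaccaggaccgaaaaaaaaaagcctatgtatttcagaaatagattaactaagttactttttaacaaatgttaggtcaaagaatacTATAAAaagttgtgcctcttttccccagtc
Gc: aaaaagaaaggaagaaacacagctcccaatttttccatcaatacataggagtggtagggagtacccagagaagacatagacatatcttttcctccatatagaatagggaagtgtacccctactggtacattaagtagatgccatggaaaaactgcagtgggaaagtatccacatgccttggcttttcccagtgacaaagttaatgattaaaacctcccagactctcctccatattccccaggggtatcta
Gpc3: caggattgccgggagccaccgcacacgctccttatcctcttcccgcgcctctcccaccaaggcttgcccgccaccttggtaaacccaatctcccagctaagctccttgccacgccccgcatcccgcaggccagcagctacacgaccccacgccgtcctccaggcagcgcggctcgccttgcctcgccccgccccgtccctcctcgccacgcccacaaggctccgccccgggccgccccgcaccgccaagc
TATAAA stood in 2 of the 6 promoters. Its first base lay 7 bases before the annotated start in *Afp* and 30 in *Afm*. In 250 bases, 12.4% of the 32851 promoters in the table have TATAAA on either strand. It did not occur in the windows of *Alb*, *Gc*, *Gpc3* and *Zbtb20*. Bases after the annotated start and other forms of the TATA box were not searched. The GC content was 33.2 to 42% in the albumin family, 44.8% in *Zbtb20* and 71.6% in *Gpc3*. A match of letters is a description and not a measured binding site.

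Reads of the 3 neighbours *Alb*, *Afp* and *Afm* were lower in KO than in WT in the gene body and at the promoter-proximal region, and *Gpc3* gene body reads were lower as well. *Gc*, *Zhx2* and *Zbtb20* were not called in either region. A call required, in limma over the active genes, an adjusted p below 0.05 together with a log2 fold change beyond 0.6 in either direction. Of the 6 active members, 3 fell in the gene body, where 11.4% of all active genes were called down and 21.8% in either direction, and 3 fell at the promoter-proximal region, where 2.2% were called down and 28% in either direction. No member was called up in either region, and with the deposited scaling and all libraries none was up at an unadjusted p under 0.05 in limma. edgeR and DESeq2 called 0 up too. The background of rises was 10.4% in the gene body and 25.8% at the promoter-proximal region. The promoter-proximal background turned with the scaling, from 3282 active genes up and 280 down to 634 up and 942 down with median-of-ratios scaling within the region, where 4 members, *Gc* among them, were called down. The median log2 fold change of the 6 genes was -0.58 in the gene body against -0.09 over all active genes, and -0.78 at the promoter-proximal region against 0.56. With 2 libraries against 2, an exact permutation test of 1 gene cannot go below p = 0.33, so the tests below rest on the spread shared across genes.

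**Figure D1:**
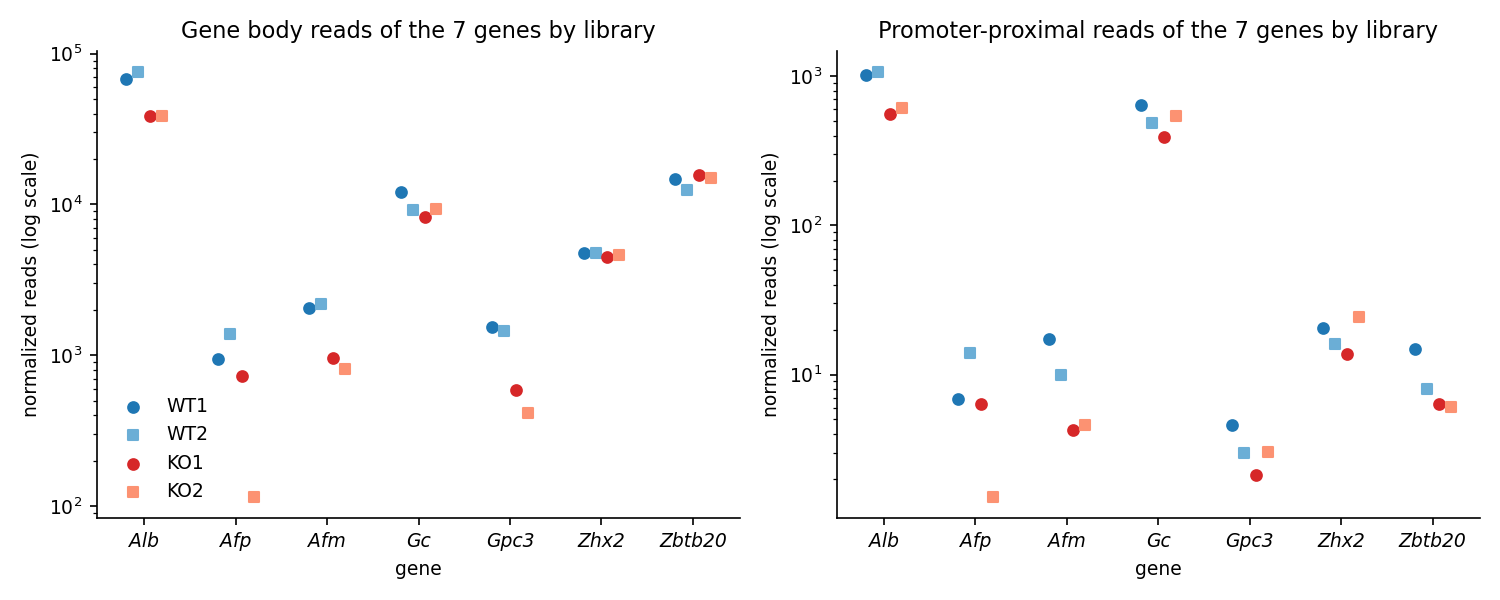
Normalized reads of the 7 genes (log scale) in the gene body (left) and at the promoter-proximal region (right), with 1 point per library (blue WT, red KO; circles replicate 1, squares replicate 2). *Alb*, *Afm* and *Gpc3* gene bodies show both KO libraries well below both WT libraries, whereas for *Afp* KO2 (115) lies far below KO1 (722).

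*Alb* (NM_009654, chromosome 5, 90460870 to 90476602 in mm10) had 67673 (WT1) and 75584 (WT2) normalized reads in the WT gene body, against 38678 (KO1) and 38574 (KO2) in KO. The groups did not overlap, and the KO libraries differed from each other by less than 1%. The KO mean was 53.9% of the WT mean, with a log2 fold change of -0.89 ± 0.13 (SE, limma, adjusted p = 1.00e-05). In WT, *Alb* had the sixth highest gene body density of all active genes, 4868 normalized reads per kb, and in KO it was at 2625 per kb. It took 0.304% of all gene body reads in WT and 0.179% in KO. At its promoter-proximal region there were 1015, 1070, 558 and 612 normalized reads in WT1, WT2, KO1 and KO2, again without overlap. The promoter-proximal log2 fold change was -0.83 ± 0.29 (SE, limma, adjusted p = 0.0197), which is 1.39 below the median of active genes, and this call was lost when any library was left out (adjusted p from 0.0551 to 0.272). In whole liver, fewer nuclei of a cell type and less transcription per nucleus cannot be told apart.

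*Afp* (NM_007423, chromosome 5, 90490714 to 90508907) starts 29.8 kb after the start of *Alb*. Its gene body reads, normalized, were 948 (WT1) and 1390 (WT2) in WT, and 722 (KO1) and 115 (KO2) in KO. Both KO libraries were below both WT libraries, but KO1 was near WT1 and KO2 was 6.26-fold below KO1. The log2 fold change was -1.99 ± 0.42 (SE, limma, adjusted p = 5.56e-04). Without KO2 it was -0.67 and not called (adjusted p = 0.0563), and without KO1 it was -3.30 (adjusted p = 1.93e-04). DESeq2 on the recovered reads gave -1.48 with an adjusted p of 0.354 and edgeR -1.43 with an adjusted p of 0.00173. The size of the fall thus rested on KO2. The promoter-proximal region held only 6 and 14 reads in the WT libraries and 6 and 1 in KO1 and KO2, with a log2 fold change of -1.34 ± 0.51 (SE, limma, adjusted p = 0.0356) that was lost under 10 of 21 alternatives, among them edgeR (adjusted p = 0.0915).

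*Afm* (NM_145146, chromosome 5, 90518949 to 90553544) lies beyond *Afp* in the same orientation. It had 2053 and 2197 normalized gene body reads in WT1 and WT2 and 953 and 808 in KO1 and KO2. The groups were clearly apart, and libraries of 1 genotype differed by no more than 1.18-fold. The log2 fold change of -1.27 ± 0.12 (SE, limma, adjusted p = 1.15e-08) kept its call under all 21 alternatives, between -1.39 and -1.16. Promoter-proximal reads were few, with 17.2 and 10 normalized reads in WT1 and WT2 and 4.24 and 4.55 in KO1 and KO2. Their log2 fold change was -1.39 ± 0.49 (SE, limma, adjusted p = 0.0233), and the call was lost under 7 alternatives, including without WT1, KO1 or KO2 (adjusted p of 0.209, 0.0616 and 0.112).

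*Gc* (NM_008096, chromosome 5, 89417511 to 89457898) lies about 1 Mb before *Alb* and is transcribed in the opposite direction. Normalized reads in its gene body were 12112 and 9209 in the WT libraries and 8305 and 9301 in the KO libraries, and the groups overlapped. The log2 fold change was -0.27 ± 0.12 (SE) and was not called (adjusted p = 0.0982 from limma). Promoter-proximal values overlapped too, at 645 and 490 in WT1 and WT2 and 391 and 541 in KO1 and KO2. The promoter-proximal log2 fold change of -0.29 ± 0.29 (SE, limma, adjusted p = 0.440) became -0.86 and was called when the libraries were scaled by the median of ratios within the region (adjusted p = 0.00588), a scaling that lowers the median of all active genes there from 0.56 to -0.001. The density of *Gc* in the WT gene body, 271 normalized reads per kb, was below that of *Alb* and above those of *Afp* (68.0) and *Afm* (63.2).

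*Gpc3* (NM_016697, chromosome X, 52272426 to 52613974) had 1527 and 1445 normalized gene body reads in WT1 and WT2 and 587 and 411 in KO1 and KO2. Every KO library was below every WT library, and the KO mean was 33.6% of the WT mean. These reads spread over a gene body of 340548 bp, which put the gene under the density required of active genes. With a required density of 2 per kb, an alternative added after the data had been seen, its log2 fold change was -1.59 ± 0.14 (SE, limma, adjusted p = 1.40e-08 over 13533 genes, and 4.41e-09 from edgeR). Over all 20642 symbols without a filter, limma did not call it (adjusted p = 0.0660), while edgeR did (log2 fold change -1.56, adjusted p = 5.50e-30). That unfiltered edgeR fit also gave *Afp* an adjusted p of 4.24e-24, against 0.00173 from edgeR over active genes. The KO libraries of *Afp* differed 6.26-fold, so p values of the unfiltered edgeR fit do not measure the spread between the libraries of a gene. Its promoter-proximal region held 4, 3, 2 and 2 reads in WT1, WT2, KO1 and KO2, too few to show a difference (adjusted p = 0.572 from limma at the same density).

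The repressors were not lower or higher beyond the thresholds. *Zhx2* (NM_199449, chromosome 15, 57694667 to 57839832) was almost level in the gene body, at 4744 and 4762 normalized reads in WT1 and WT2 against 4505 and 4637 in KO1 and KO2. The KO mean was 96.2% of the WT mean, and the log2 fold change of -0.06 ± 0.11 (SE, limma, adjusted p = 0.704) turned to 0.02 with median-of-ratios scaling. Its promoter-proximal reads overlapped between genotypes, at 20.7 and 16 in WT1 and WT2 and 13.8 and 24.3 in KO1 and KO2. *Zbtb20* (chromosome 16, 42875689 to 43634392) was represented by transcript NM_019778, which starts within this span. It had 14711 and 12448 normalized gene body reads in WT1 and WT2 and 15563 and 15043 in KO1 and KO2. The groups did not overlap, but the log2 fold change of 0.18 ± 0.12 (SE) was small and not called (adjusted p = 0.243 from limma). With median-of-ratios scaling it was 0.26, with an unadjusted p of 0.0403 and an adjusted p of 0.0912 from limma. At its promoter-proximal region, 14.9 and 8 normalized reads in WT1 and WT2 stood against 6.36 and 6.07 in KO1 and KO2, a log2 fold change of -0.73 ± 0.49 (SE) that was not called (adjusted p = 0.229 from limma). At the annotated start of this transcript the reads were few in number, although their density was above that of the gene body in every library. In WT1 and WT2 it was 298 and 160 normalized reads per kb, against 39.7 and 33.6 in the gene body. Other starts of *Zbtb20* were not analysed here.

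**Figure D2:**
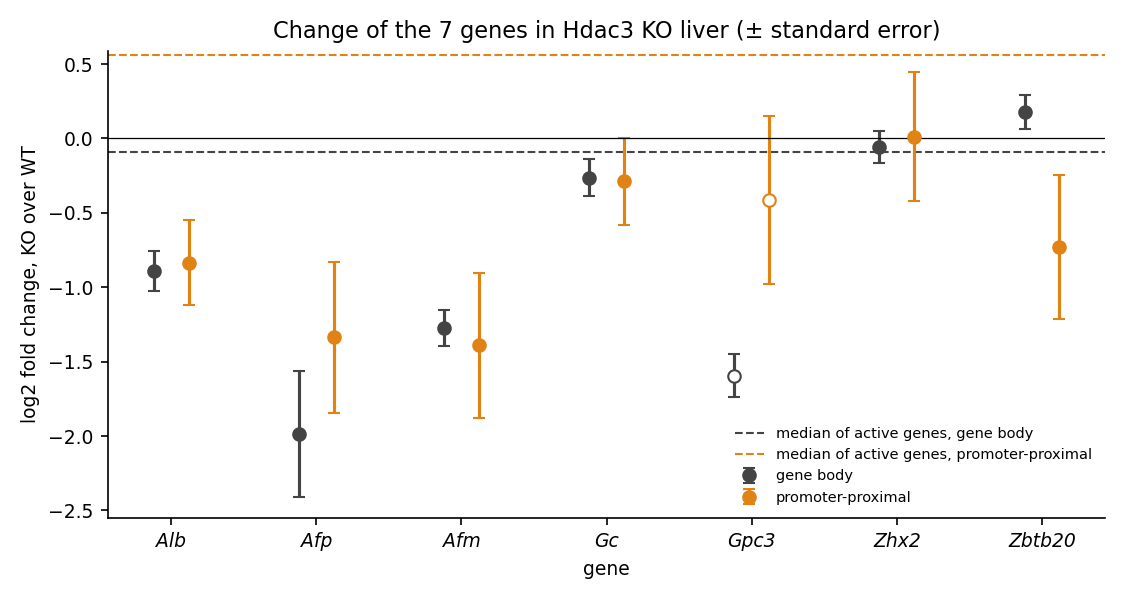
Log2 fold change of KO over WT (limma, error bars are standard errors) of the 7 genes in the gene body (grey) and at the promoter-proximal region (orange). Dashed lines are the medians of active genes, -0.09 and 0.56, and open circles mark *Gpc3*, fitted at a required density of 2 per kb. *Alb*, *Afp* and *Afm* lie below 0 in both regions.

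The pausing index, promoter-proximal density divided by gene body density, differed widely among the genes but was called in none of them between genotypes with the deposited scaling and all libraries. In that fit no active member passed an unadjusted p under 0.05 in limma, while 11.2% of active genes were called up and 0.543% down. *Alb* had pausing indices of 4.42 and 4.17 in WT1 and WT2 and 4.25 and 4.67 in KO1 and KO2. Both regions of *Alb* fell to a like degree, and the log2 fold change of its index was 0.05 ± 0.45 (SE), 0.56 below the median of active genes (0.61). *Gc* had the highest index of the active members, 41.9 in both WT libraries, 37.1 in KO1 and 45.8 in KO2. For *Afp*, the index rested on 1 promoter-proximal read in KO2 (4.52 there, and 2.50, 3.46 and 3.03 in WT1, WT2 and KO1). The indices of *Afm* (5.63, 3.06, 2.99 and 3.79 in WT1, WT2, KO1 and KO2) and *Zhx2* (12.6, 9.69, 8.83 and 15.1) overlapped between genotypes. *Zbtb20* had 7.52 and 4.77 in WT1 and WT2 and 3.03 and 2.99 in KO1 and KO2, with an adjusted p of 0.197 from limma. When each region was scaled by its own median of ratios, the unadjusted p was 0.0139 for *Zbtb20* and 0.0268 for *Gc* (adjusted p of 0.233 and 0.288 from limma). With a pseudocount of 10, *Afp* was called (adjusted p = 0.00225 from limma), as it was without KO1 (0.0391), and *Zbtb20* had an adjusted p of 0.0432 at a log2 fold change of -0.56, within the fold threshold.

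The 3 falling neighbours were compared with the other genes around them. Within 1 Mb of the span from *Alb* to *Afm* there were 8 other active genes. In the gene body limma called 1 of them, against 21.8% of all active genes called in either direction. The called neighbour was *Rassf6*, a Ras association domain gene that starts 142 kb after the start of *Alb*. Its gene body counted 797 and 742 normalized reads (WT1, WT2) against 262 and 235 (KO1, KO2), a log2 fold change of -1.63 ± 0.14 (SE, limma, adjusted p = 3.90e-09). Its promoter-proximal region fell as well (log2 fold change -0.996, adjusted p = 0.0353 from limma). On the other side of *Alb*, *Ankrd17* (-0.21, adjusted p = 0.139) and *Cox18* (0.03, adjusted p = 0.872) were not called in the gene body by limma, and neither was *Mthfd2l* (0.30, adjusted p = 0.0747) beyond *Rassf6*. At the promoter-proximal region, the chemokine gene *Cxcl2* (1.19) and *Gm19619* (1.04) were called up, 2 of the 8 neighbours, which is near the share of all active genes called up there (25.8%).

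**Figure D3:**
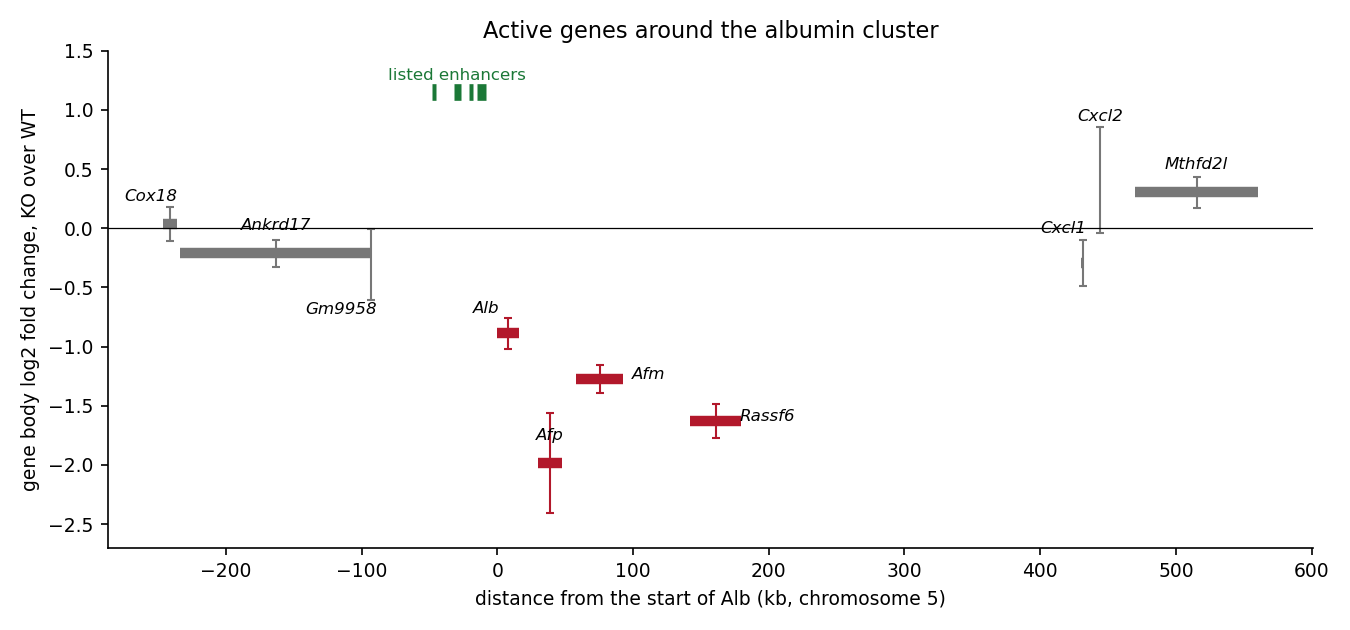
Gene body log2 fold change (KO over WT, limma, error bars are standard errors) of active genes around *Alb*, plotted by distance in kb from its start. Bars span each gene, red marks a called fall, and green blocks at the top are the 4 listed enhancers with *Alb* as closest gene, whose height carries no value. Red bars are the neighbours *Alb*, *Afp*, *Afm* and *Rassf6*, between -0.89 and -1.99.

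Around *Gpc3*, 2 of 7 other active genes rose in the gene body, *Ccdc160* (log2 fold change 0.81, adjusted p = 0.0170 from limma) and *C430049B03Rik* (0.72, adjusted p = 2.33e-04). Of all active genes, 10.4% rose there. At the promoter-proximal region 4 of the 7 were called up, against 25.8% of all active genes. The next glypican gene on the chromosome, *Gpc4*, had 4125 and 3749 normalized gene body reads in WT1 and WT2 and 2766 and 2674 in KO1 and KO2. Its log2 fold change of -0.53 ± 0.11 (SE) had an adjusted p of 3.43e-04 from limma but stayed within the fold threshold. *Gpc4* was the only active gene among the 5 other glypicans. Of the inactive ones, *Gpc6* had 1968 and 1994 normalized gene body reads in WT1 and WT2 and 4323 and 3846 in KO1 and KO2. *Gpc1* was also higher in KO (151 and 138, against 55.1 and 63 in WT). *Gpc5* was lower in KO (19.1 and 28.8, against 50.5 and 36 in WT), and *Gpc2* overlapped between genotypes. The changes of these inactive genes were not tested. None of the 8 active neighbours of *Zhx2* was called in the gene body. Near *Zbtb20*, 1 of 6 other active genes was called in that region, *Gramd1c*, which fell (-0.89, adjusted p = 2.69e-06 from limma). Over all active genes, 11.4% were called down.

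The list of 2282 intergenic enhancers, called by the authors on reads pooled from all libraries, names *Alb* as the closest gene of 4. These lie upstream of *Alb*, and the list gives their distances to it as 44842, 26630, 18051 and 8651 bp (chr5:90412879-90416047, chr5:90429313-90434259, chr5:90439901-90442838 and chr5:90446209-90452238). Of the 1379 genes that are closest to an enhancer, 104 have at least as many. In the columns of 4DGenome contacts, which collects chromatin interactions from other experiments, 3 of the 4 are linked to both *Afp* and *Afm*, and 2 lie within 50 kb of *Afp*. *Gc* is the closest gene of 1 enhancer at 179259 bp and *Zbtb20* of 1 at 160871 bp. *Gpc3* and *Zhx2* are the closest gene of none. The list holds no reads per library, so enhancer transcription in KO and WT was not analysed here.

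The fall of *Afp* was set beside the differences between libraries of the same genotype. Among 11927 active genes with a mean of at least 50 gene body reads, only *A730090H04Rik* differed more between KO1 and KO2. The log2 difference of KO2 from KO1 was -2.64 for *Afp*, whereas the median absolute difference was 0.13. For *Alb* the absolute difference was 0.004, for *Zhx2* 0.04, for *Zbtb20* 0.05, for *Gc* 0.16, for *Afm* 0.24 and for *Gpc3* 0.51. *Afp* was also the member with the largest difference between WT libraries (0.55), with WT2 the higher.

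The order of *Afp* within each genotype was shared with *Xist*, the RNA of the inactive X chromosome, whose gene body values were 445 and 1135 in WT1 and WT2 and 688 and 196 in KO1 and KO2. The Y-linked gene *Uty* ran in the opposite order, with 3292, 1133, 2165 and 2876. *Ddx3y*, *Eif2s3y* and *Kdm5d* did likewise, and *Kdm5d* had 896 and 316 in WT1 and WT2 and 530 and 796 in KO1 and KO2. *Xist* and these 4 Y-linked genes thus ran in opposite orders, while the X-linked *Gpc3* was slightly higher in WT1 than in WT2. The part of this in the result for *Afp* was not tested. *H19*, a fetal imprinted RNA, also had more reads in WT2 than in WT1 (3837 and 2411) and fewer in KO2 than in KO1 (115 and 319). With 2 libraries per genotype few orders are possible, so many genes can share the order of *Afp* without a link to it. The share of all active genes with this order was not counted here.

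**Figure D4:**
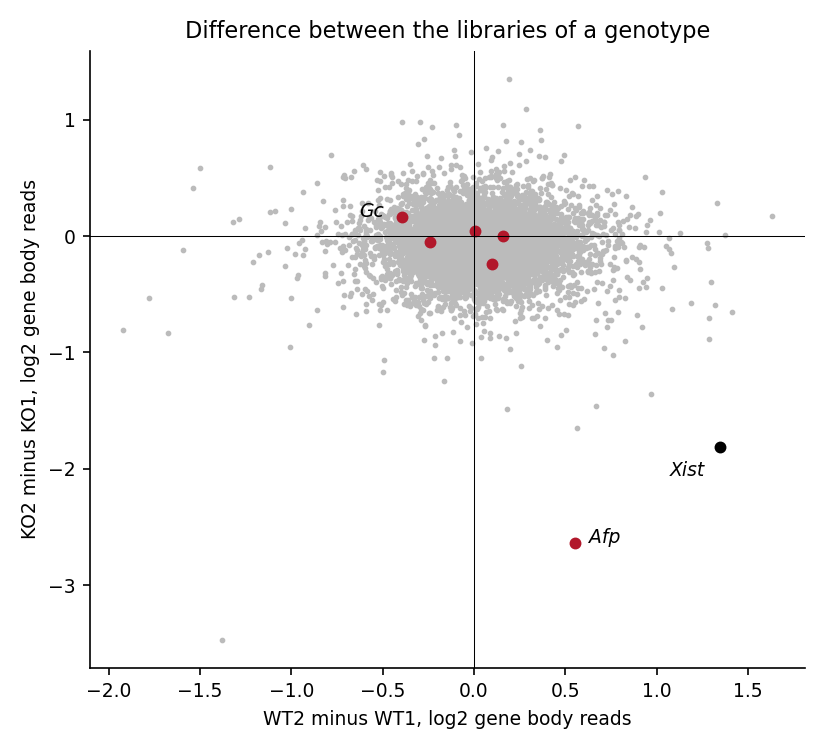
Log2 difference in gene body reads between the WT libraries (horizontal) and between the KO libraries (vertical) for 11927 active genes (grey), with the 6 active members in red and *Xist* in black. *Afp* lies at 0.55 and -2.64, far from *Alb*, *Afm*, *Gc*, *Zhx2* and *Zbtb20*, whose KO libraries differed by at most 0.24. *Gpc3* was not active and is not drawn.

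Genes with library profiles like those of *Alb* and *Afp* were sought among 11926 other active genes with a mean of at least 50 gene body reads. The measure was the Euclidean distance over the 4 libraries of log2 gene body values, each minus the WT mean of its gene. The level of a gene thus did not count. Nearest to *Alb* were *Klf9*, *Hip1r* and *Def8* at distances of 0.04, 0.07 and 0.07 on the log2 scale. *Klf9*, a Krüppel-like factor, had 5613 and 6269 normalized gene body reads in WT1 and WT2 and 3299 and 3220 in KO1 and KO2. For *Afp* the nearest were *Fst* and *Scn4b* at distances of 1.19 and 1.24, so no gene followed *Afp* closely.

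Of 18 fetal and oncofetal genes in the table, 12 were active, and in the gene body 6 fell and 2 rose (limma), against 11.4% and 10.4% of all active genes. The median log2 fold change of the 12 was -0.28 against -0.09 over all active genes. *H19* had the largest fall (-3.98, adjusted p = 1.10e-10), followed by *Igf2*, the fetal growth factor gene next to it (-3.32, adjusted p = 1.91e-09). *Igf2* counted 1711 and 3352 normalized reads (WT1, WT2) against 382 and 149 (KO1, KO2). The surface antigen gene *Cd24a* (-1.52) and imprinted *Peg3* (-1.51) fell as well. *Mest*, another imprinted gene (1.20), and *Hmga2*, which encodes a chromatin protein of fetal cells (0.99), rose; both were named after their values had been seen. Fetal genes thus moved in both directions. Of 6 genes known to respond to *Zhx2*, 2 were active and both fell in the gene body, *H19* and the lipoprotein lipase gene *Lpl* (-0.82, adjusted p = 6.66e-06 from limma). *H19* is thus in both lists, and *Lpl* was not called at the promoter-proximal region (-0.13, adjusted p = 0.727 from limma). The inactive genes had few gene body reads, with WT and KO means of 5.87 and 27.2 for *Cyp2a4*, 0 and 5.69 for *Cyp4a12a*, and 9.24 and 0 for *Elovl3*. *Mup20* was at 0 in all libraries.

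Transcription factors that act on promoters or enhancers of the albumin family fell more often than they rose. All 21 listed regulators were active, and in the gene body 12 fell and 1 rose, with a median log2 fold change of -0.86, where 11.4% of all active genes fell, 10.4% rose and the median was -0.09. *Onecut1* (hepatocyte nuclear factor 6) counted 2696 and 5507 normalized reads (WT1, WT2) against 1080 and 791 (KO1, KO2), a log2 fold change of -2.06 (adjusted p = 1.96e-08 from limma). *Hnf4a*, a nuclear receptor that maintains hepatocyte genes, went from 17104 and 17557 in WT1 and WT2 to 5615 and 6374 in KO1 and KO2 (-1.53, adjusted p = 2.61e-10 from limma). *Foxa3* had a log2 fold change of -1.33. The 1 gene that rose was *Gata4* (0.71), a zinc finger factor that endothelial and stellate cells of the liver also use. At the promoter-proximal region 5 of the 21 fell and 3 rose, against 2.2% and 25.8% of all active genes.

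Of 8 paralogs and relatives of the repressors, 2 fell in the gene body and none rose, against 11.4% and 10.4% of all active genes. The median log2 fold change of the 8 was -0.08, near that of all active genes (-0.09). *Zbtb16*, a BTB zinc finger factor like *Zbtb20*, went from 14438 and 12176 normalized reads in the WT libraries to 3635 and 3872 in KO1 and KO2 (log2 fold change -1.82, adjusted p = 3.10e-11 from limma). *Zhx3* fell by 0.75 on the log2 scale (adjusted p = 2.09e-05 from limma), while *Zhx1*, which lies near *Zhx2*, was at -0.13 (adjusted p = 0.477).

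Among 30 other genes of plasma proteins, 18 fell and 2 rose in the gene body, with a median log2 fold change of -0.70 (all active genes: 11.4% down, 10.4% up, median -0.09). The other 10 were not called and ran from -0.60 (*Fetub*) to 0.16 (*Hpx*), with *Ttr* at -0.30 and *Trf* at 0.02. The gene body change of *Alb* (-0.89) lay near this median, and *Afm* (-1.27) and *Afp* (-1.99) were below it. *Apoa1*, the main protein of high density lipoprotein, counted 9725 and 11363 normalized reads (WT1, WT2) against 3192 and 3002 (KO1, KO2) (-1.76, adjusted p = 3.94e-11 from limma). The vitronectin gene *Vtn* (-1.68) and *Apoh* (-1.54) followed, whereas *Serpina6*, the corticosteroid binding globulin gene, rose (1.67, adjusted p = 5.34e-10). The second gene that rose was *Serpina7* (1.42), which encodes a carrier of thyroid hormone. At the promoter-proximal region 9 of the 30 fell and 2 rose, against the same 2.2% and 25.8%.

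Markers of other liver cells moved with genotype. All 10 markers of hepatic stellate cells and fibroblasts rose in the gene body, with a median log2 fold change of 1.30, where 10.4% of all active genes rose. Their summed normalized reads were 10129 and 11608 in the WT libraries and 21634 and 23514 in the KO libraries. *Rgs5* (2.49), *Lrat* (1.63), *Dcn* (1.62) and *Pdgfrb* (1.59) had the largest changes. Of 8 endothelial markers 6 rose, led by *Tek* (1.08) and *Kdr* (0.85), and their sum was 56826 to 61399 in WT and 95502 to 106991 in KO. Of 7 Kupffer cell markers and 10 proliferation markers none was called in the gene body by limma (medians of 0.21 and -0.21). Of 4 active erythroid markers 3 fell, among them *Klf1* (-1.32) and *Alas2* (-1.19), and *Epor* rose (0.77), where 11.4% of all active genes fell. Sums over the 5 of 9 listed erythroid markers that were measured, inactive *Gata1* included, were 515 to 608 in WT and 329 to 361 in KO. Of 6 leukocyte markers, the T cell genes *Cd3e* (0.88) and *Lck* (0.84) rose and 1 marker fell. Of 4 active cholangiocyte markers, 2 fell, among them *Sox9* (-1.33). No marker in these lists was at 0 in all libraries. The part of these cell types in the falls of *Alb*, *Afp*, *Afm* and *Gpc3* was not tested.

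**Figure D5:**
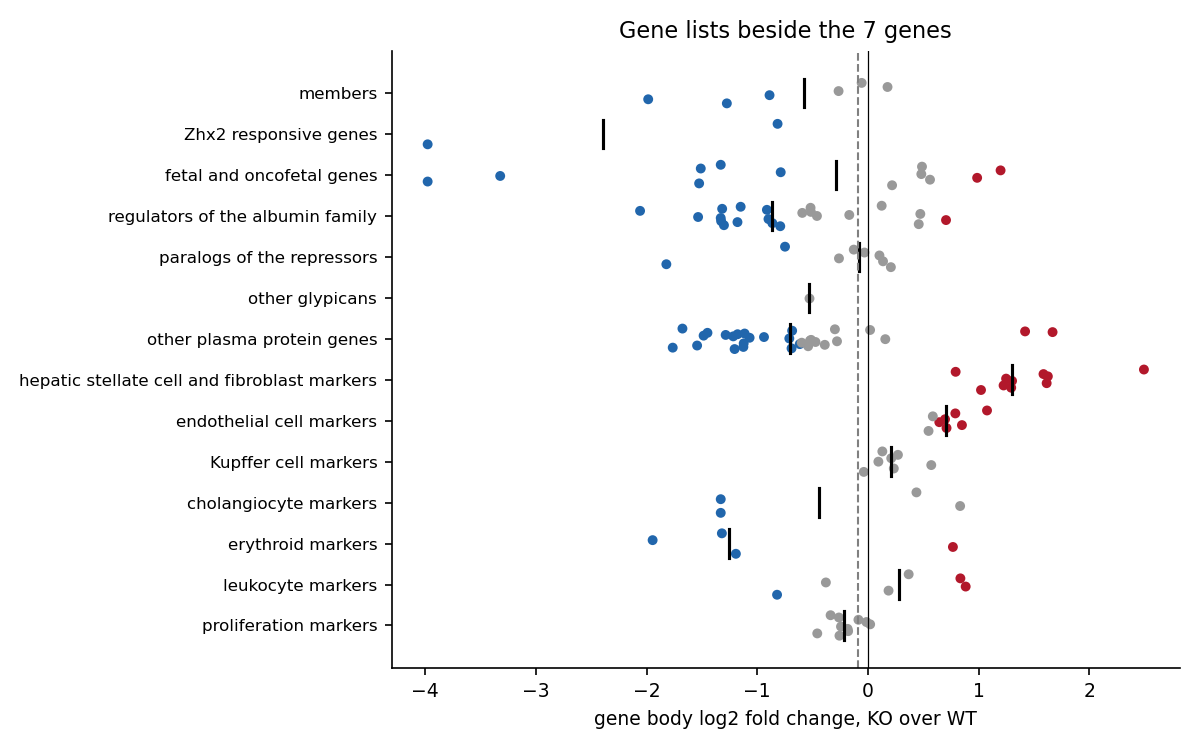
Gene body log2 fold change (KO over WT, limma) of each active gene among the 7 genes (members) and in the lists, with called rises in red, called falls in blue and others in grey. Black bars are list medians and the dashed line is the median of active genes (-0.09). Plasma protein genes and regulators lie mostly below 0, stellate and endothelial markers above it.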

How the data were processed

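PRO-seq libraries of 2 WT and 2 *Hdac3* KO liver pools were grouped by their labels. The authors used cutadapt for trimming, Bowtie2 for alignment to mm10 and NRSA for counting, after leaving out ribosomal and poorly mapped reads. The deposited values are a signal, reads multiplied by 1 scaling factor per library (1.15 for WT1, 1 for WT2, 1.06 for KO1, 1.52 for KO2), for the 50 bp window with most reads near the TSS (promoter-proximal) and for the gene body from 1 kb after the TSS to the gene's end. Whole reads were recovered for 100% of the 41640 values of each library (relative tolerance 0.001), and edgeR on these reads called 2783 active genes in the gene body and 3516 at the promoter-proximal region. The deposited enhancer list gives positions, counts of centers and gene links, without reads per library.

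For each symbol, the row with most promoter-proximal reads was used (118 of 20642 symbols had several among 20820 rows). limma 3.58.1 (trend, empirical Bayes, R 4.3.3) was fitted to log2(normalized reads + 1) over 12705 active genes without a block, with Benjamini-Hochberg adjustment. The pseudocount of 1 understates fold changes of low genes. Alternatives were edgeR 4.0.16 and DESeq2 1.42.0 on recovered reads, other scalings, filters, pseudocounts and thresholds, a replicate block and leaving out each library.

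The 7 genes, gene lists and tests were chosen with earlier results of these data known. Named genes were the 7 genes, called neighbours within 1 Mb, the 4 called genes of each list with the largest absolute gene body change, and the 3 nearest library profiles of *Alb* and *Afp*. Other names were chosen after their values were seen, and some genes that the rule names are not reported here. Separate pools are stated to be biological replicates, with 2 pools per genotype. The limma p values rest on the spread between pools as shared across genes, not on that of each gene alone. A replicate number was not taken as a pair: measured from their group means, WT1 and KO1 correlated at 0.019 in gene bodies and -0.105 at promoter-proximal regions.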

Additional observations from a re-analysis of the deposited data

How the results depend on the processing

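Of the 21 alternatives, *Afm* kept its gene body call in all, *Alb* in all but no filter (limma adjusted p = 0.213) and a log2 threshold of 1, and *Afp* in all but no filter (limma, 0.385), DESeq2 (0.354) and without KO2. Not all of these could lose a call. Dropping the fold threshold only loosens the rule, and choosing the transcript by gene body reads left the values of each member as they were. In the gene body, limma called 2773 active genes and 3 members. Without a filter on activity it called 997 and 1, with no fold threshold 4968 genes, and with a log2 threshold of 1 it called 1146. Leaving out 1 library gave 2451 to 3088 genes and 2 to 3 members. At the promoter-proximal region, 3562 genes and 3 members were called. The counts were 0 and 0 without a filter (4606 genes at an unadjusted p under 0.05, and edgeR without a filter called 3198 genes and 1 member), 1576 genes (634 up, 942 down) with median-of-ratios and 1587 (638 up, 949 down) with TMM scaling within the region, each with 4 members down, and 2187 with a log2 threshold of 1. With median-of-ratios factors of gene bodies 1 member was called, and with DESeq2 also 1. Leaving out 1 library gave 402 (without KO2) to 3704 genes (without KO1), with 796 without WT1 and 596 without WT2, and 0 to 1 members. The pausing index was called in 1490 genes and 0 members, in 2509 genes and 1 member (*Afp*, log2 fold change 1.38) with a pseudocount of 10, in 0 genes without a filter (4224 at an unadjusted p under 0.05), in 14 with median-of-ratios and 22 with TMM scaling, and in 31 to 4687 genes and 0 to 1 members without 1 library (31 without WT2, 48 without WT1, 212 without KO2, 4687 without KO1). With the replicate block, which pairs libraries by number only, 2773 gene body, 1949 promoter-proximal and 148 pausing index calls were made, with 3, 0 and 0 members. The crossed pairing, added after the data had been seen, gave 2785, 5260 and 4252. Signs turned for genes that were not called: *Zhx2* gene body became 0.025 with median-of-ratios (either form) and 0.023 with TMM scaling, *Zhx2* promoter-proximal -0.53 with both scalings within the region, -0.38 (without KO2) to 0.40 (without KO1) without 1 library, also below 0 without WT2 (-0.16), and the *Zhx2* pausing index -0.56 with median-of-ratios, -0.55 with TMM, -0.11 without WT2 and -0.30 (without KO2) to 0.43 (without KO1) over the left-out libraries. The *Alb* index became -0.60 with both scalings and ran from -0.014 (without KO2) to 0.12 (without KO1), the *Afm* index 0.57 with a pseudocount of 10, 0.30 without WT1 and 0.04 without KO1, and the *Gc* index ran from -0.17 (without KO2) to 0.13 (without KO1). The cause of these changes was not tested. Low promoter-proximal reads (1 to 18 per library for *Afp*, *Afm*, *Gpc3*, *Zhx2* and *Zbtb20*) limit what can be seen there.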
